A study of Sus scrofa with 10 samples.

Results

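The genes described here carry lipid inside and between cells: the lipid droplet coats PLIN1, PLIN2 and PLIN3, the fatty acid binding proteins FABP3, FABP4 and FABP5, the uptake genes CD36 and LPL, and the sterol carriers APOE and ABCA1. A locus was taken when it was protein-coding and its gene name in the deposited table equalled a listed symbol, which was met for 9 of the 10 symbols, among 19972 protein-coding loci and 43499 gene loci in all. None of the protein-coding loci was named CD36. A locus on chromosome 9 (99684189 to 99782278) is named ENSSSCG00000015405 and described in the table as CD36 molecule, and its values are given beside the 9 genes and left out of counts of them.

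RNA of whole ovaries from 10 gilts of 234 d, drawn at random from larger groups, was sequenced, 1 library per pig, after the follicles on the surface had been cut away. All the pigs, controls included, had been fed altrenogest, a synthetic progestin that holds back oestrus, from an age of 210 d for 18 d at a daily 20 mg. After 2 d without it, 5 gilts received 1000 IU of recombinant pig follicle-stimulating hormone (rpFSH) and 5 received saline. The sample labels write the treatments as fpFSH and untreated. According to the labels RNA was selected by poly(A) and read on a NovaSeq, and their protocol speaks of adipose tissue, whereas the methods name rRNA removal and a HiSeq instrument and describe ovaries only.

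Lipid droplets store triglycerides and cholesteryl esters under a coat of perilipins, and fatty acid binding proteins carry fatty acids through the cytosol. LPL frees fatty acids from circulating lipoproteins, CD36 takes them up at the cell surface, APOE on lipoproteins binds their receptors, and ABCA1 passes cellular cholesterol to apolipoproteins. In the ovary, cells that make steroids draw cholesterol from lipoproteins and from such stores, and the corpus luteum is rich in lipid droplets.

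Levels are given as FPKM, the fragments of a gene scaled by transcript length and library size, which allows genes to be compared per length. The libraries held from 64873797 to 75114003 counts. Some libraries stood apart from the rest. The luteal and steroidogenic markers (5 of 8 listed genes matched, none at 0 counts) had a summed FPKM of 2580 in control pig 2, 1363 in rpFSH pig 1 and 329 in rpFSH pig 4, and between 15.1 and 61.8 in the other pigs. CYP11A1, which makes pregnenolone from cholesterol, was the most abundant of them, at 1758, 787 and 178 in these pigs. The oviduct-type epithelial markers (7 of 9 matched) added up to 64.2 in control pig 2 and 127 in control pig 5, against 5.50 to 17.5 in the other pigs. Control pig 5 also had a summed FPKM of smooth muscle markers (8 of 8 matched, ACTA2 most abundant) of 2224, against 68.9 to 508 elsewhere. In bulk tissue, fewer cells of a type and less RNA per cell cannot be told apart.

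By median FPKM over the 10 pigs the order was APOE (38.2), ABCA1 (7.39), FABP5 (3.96), FABP3 (3.66), PLIN2 (3.36), PLIN3 (1.47), LPL (1.24), FABP4 (0.406) and PLIN1 (0.0445). The median of APOE lay above that of 98.96% of the protein-coding loci, that of ABCA1 above 90.01% and that of PLIN1 above 22.8%. APOE exceeded ABCA1 in 10 of 10 pigs, and ABCA1 exceeded FABP5 in 9. FABP5 exceeded FABP3 in 5 of 10 pigs, so that their order was not fixed. The ranges over pigs of all neighbours in this order overlapped.

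**Figure D1:**
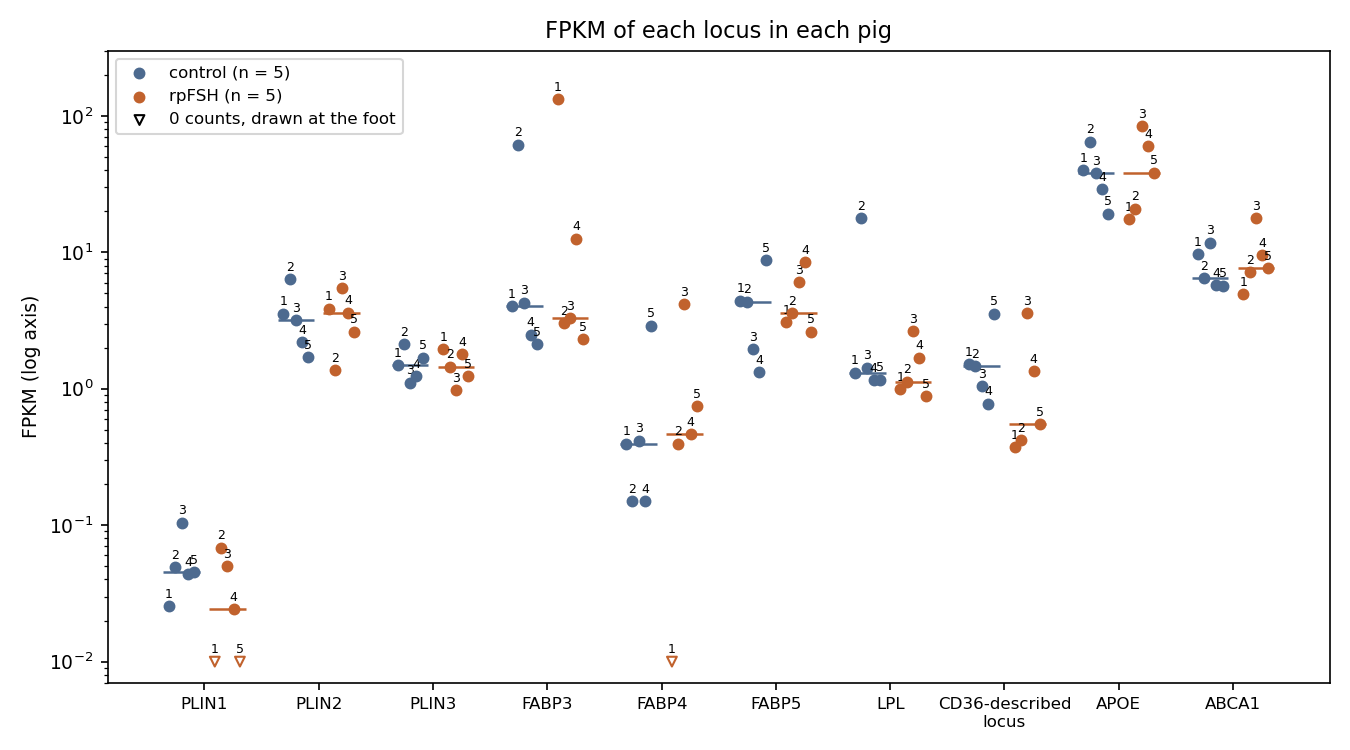
FPKM on a log axis of each locus (x axis) in 5 control and 5 rpFSH pigs, with the pig's number above each point, a line at each group's median and triangles at the foot for pigs with 0 counts. FABP3 lay at 61.4 in control pig 2 and 133 in rpFSH pig 1, and LPL at 17.7 in control pig 2, while the groups overlapped for every locus.

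The question of the design is whether the ovaries of treated gilts differ from those of controls. Differences were tested with edgeR's quasi-likelihood test on counts, two-sided, over the 36339 loci of any kind that averaged 0.1 FPKM or more, with Benjamini-Hochberg adjustment over all of them. This filter left 8 of the 9 genes, since PLIN1 lay below it. Of these 8, 0 had an adjusted p under 0.05 and 0 an unadjusted P under 0.05 by edgeR. With DESeq2 and with limma the counts were 0 and 0 as well, although DESeq2 gave no P for FABP3 and LPL. Among the 15170 protein-coding loci tested, 0% had an adjusted p under 0.05, 1.11% had an unadjusted P under 0.05 with higher levels in rpFSH pigs and 3.74% with lower levels. DESeq2 gave an adjusted p under 0.05 to 96 protein-coding loci and limma to 0. FPKM of the groups did not overlap in 0.0791% of the protein-coding loci with rpFSH pigs above and in 0.547% with rpFSH pigs below, and overlapped for each of the 9 genes. The log2 change was positive for 5 and negative for 3 of the 8 genes, with a median of 0.21 beside -0.05 over the protein-coding loci tested.

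**Figure D2:**
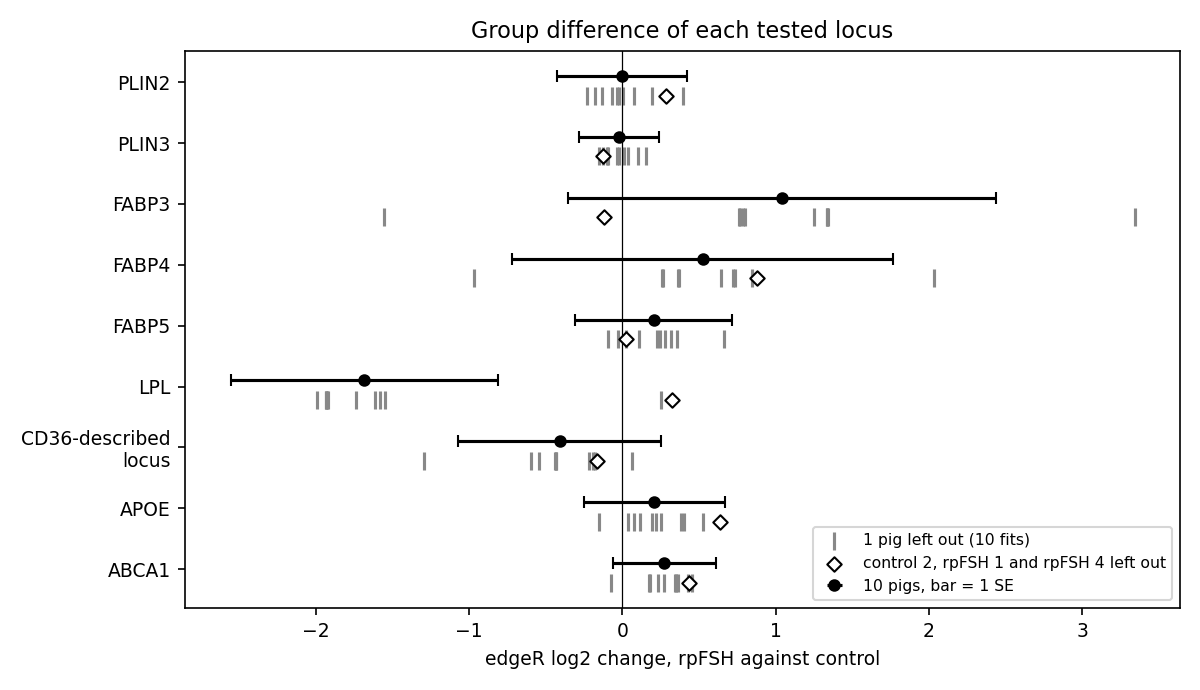
edgeR log2 change of rpFSH against control pigs (x axis) for the 8 tested genes and the locus described as CD36 molecule, with 1 SE (n = 5 pigs a group), ticks for fits without 1 pig each and diamonds for the fit without control pig 2 and rpFSH pigs 1 and 4. LPL was at -1.68 with all pigs and at 0.25 without control pig 2, and FABP3 ranged from -1.55 to 3.34 with 1 pig left out.

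PLIN1 (chromosome 7, 55237349 to 55251510, minus strand) coats the droplets of fat cells. Its counts were 4, 8, 16, 8 and 8 in control pigs 1 to 5 and 0, 12, 8, 4 and 0 in rpFSH pigs 1 to 5. All of these counts are multiples of 4, so that no limit from single counts is given for the pigs with 0. The groups overlapped, and the exact permutation test on log2 (FPKM + 1) gave p = 0.214 for a difference of -0.03. ADIPOQ, LEP and LGALS12, which mark fat cells and were chosen after their values were seen, were each under 0.1 FPKM in every pig, and 10 of 12 adipocyte markers were matched. Of the other markers, LIPE lay between 1.16 and 2.72, CIDEA between 0.404 and 1.83, CIDEC between 0.105 and 0.521, RBP4 between 0.159 and 0.700, TRARG1 between 0.0283 and 0.382, and PCK1 was at 0.640 in control pig 2 and at 0 counts in the other 9 pigs. The summed FPKM of the 10 was between 8.16 and 8.91 in control pigs and between 6.62 and 8.004 in rpFSH pigs, without overlap. This difference was not tested. Of this sum a locus that joins GPD1 with SMARCD1 gave between 3.80 and 5.60. By the mean log2 (FPKM + 1) of the list the groups overlapped, as rpFSH pig 1 (0.979) lay above control pig 3 (0.913). Of the 6 genes of this list tested by edgeR, 0 had an unadjusted P under 0.05.

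PLIN2 (chromosome 1, 203683875 to 203713121, plus strand) coats droplets in most cell types. FPKM of PLIN2 was 3.55, 6.37, 3.17, 2.21 and 1.70 in control pigs 1 to 5 and 3.86, 1.38, 5.48, 3.61 and 2.62 in rpFSH pigs 1 to 5. Control pig 2 and rpFSH pig 3 were high, rpFSH pig 2 and control pig 5 were low, and the groups overlapped. The means were 3.40 ± 1.82 and 3.39 ± 1.52 (SD, n = 5 each), with an edgeR log2 change of -0.00 ± 0.42 (SE; adjusted p = 1.00) and p = 0.976 by the two-sided exact permutation test on log2 (FPKM + 1). The sign of so small a value turned with the filter, the scaling, limma and a replicate block. With 1 pig left out it ran from -0.23 without rpFSH pig 3 to 0.40 without control pig 2. A locus without a strand, of another type than protein-coding, carries the name PLIN2 inside this gene. Its FPKM was between 5.61 and 15.4 and above that of the coding locus in 10 of 10 pigs. Whether its reads were also counted for the coding locus is not known.

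PLIN3 (chromosome 2, 73969909 to 73997400, plus strand), which moves between the cytosol and young droplets, had the lowest SD over pigs of log2 (FPKM + 1) among the 8 tested genes. Its FPKM was 1.49, 2.12, 1.11, 1.24 and 1.69 in control pigs 1 to 5 and 1.94, 1.45, 0.976, 1.80 and 1.24 in rpFSH pigs 1 to 5. The highest pig, control pig 2, was 2.17 times the lowest, rpFSH pig 3, and the groups covered nearly the same range. This SD was 0.22, and 33.9% of 11315 protein-coding loci averaging 1 FPKM or more had a smaller SD. By edgeR the log2 change was -0.02 ± 0.26 (SE, n = 5 each; adjusted p = 0.999). It ran from -0.15 without rpFSH pig 1 to 0.16 without control pig 2, and its sign turned in 6 of 21 alternatives, up to 0.28 without control pigs 2 and 5. Inside this gene lie 3 further loci with its name and another type than protein-coding.

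Within the summed FPKM of PLIN1, PLIN2 and PLIN3, PLIN2 held 65.9% ± 10.2 in control pigs and 66.5% ± 13.0 in rpFSH pigs (SD, n = 5 each), a difference of 0.580 percentage points (two-sided exact permutation test, p = 0.960). PLIN2 held over 50% in 8 of 10 pigs and PLIN3 in 1, and the share of PLIN2 ran from 47.5% in rpFSH pig 2 to 84.2% in rpFSH pig 3. PLIN1 held at most 2.39%.

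FABP3 (chromosome 6, 87940897 to 87951643, minus strand), best known from heart and muscle, had the highest SD over pigs of log2 (FPKM + 1) among the 8 tested genes, at 1.92. FPKM of FABP3 was 4.02, 61.4, 4.29, 2.49 and 2.12 in control pigs 1 to 5 and 133, 3.04, 3.29, 12.6 and 2.31 in rpFSH pigs 1 to 5. Control pig 2 and rpFSH pigs 1 and 4 were high, the other pigs lay between 2.12 and 4.29, and the groups overlapped. The highest pig was 62.7 times the lowest, and 99.9% of 11315 protein-coding loci averaging 1 FPKM or more had a smaller SD over pigs. The edgeR log2 change was 1.04 ± 1.40 (SE, n = 5 each; adjusted p = 0.999), and the exact permutation test gave p = 0.635. The sign rested on single pigs. The log2 change was 3.34 without control pig 2, where edgeR gave an unadjusted P under 0.05 (adjusted p = 0.816, against 0.764 to 1.00 over all alternatives that gave one), -1.55 without rpFSH pig 1 and -0.12 without control pig 2 and rpFSH pigs 1 and 4. ZCCHC17 overlaps the locus on the other strand, and whether counting used strand is not stated, although the methods describe dUTP marking of a strand.

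The pigs with high FABP3 were those with high luteal and steroidogenic markers. STAR, which brings cholesterol into mitochondria and was chosen after its values were seen, had FPKM of 532 in control pig 2, 448 in rpFSH pig 1 and 121 in rpFSH pig 4, and at most 5.67 in the other pigs. Over 10 pigs FABP3 and the mean log2 (FPKM + 1) of the list had r = 0.969 (permutation p = 0.00063, adjusted p = 0.0499 over 108 relations). Spearman's rho was 0.903 (permutation p = 0.00086, adjusted p = 0.0929). Because the pigs fell into separate clusters, the relation was also computed over the 7 other pigs alone. There FABP3 and the mean log2 (FPKM + 1) of the list had Pearson's r = 0.674 (exact permutation p = 0.0978) and Spearman's rho = 0.750 (exact permutation p = 0.0663), with adjusted p of 0.244 and 0.322 over 8 such relations. The summed FPKM of the list in these pigs was 50.4, 61.8, 30.0 and 15.1 in control pigs 1, 3, 4 and 5 and 38.1, 28.0 and 37.4 in rpFSH pigs 2, 3 and 5. The part of luteal cells in the level of FABP3 was not tested. Theca and granulosa cells can express STAR and CYP11A1 too. Granulosa markers had a summed FPKM of 24.1 in control pig 2, 110.8 in rpFSH pig 1 and 61.0 in rpFSH pig 4. In the other pigs this sum ran from 17.2 to 229.9. INHA, the most abundant of these markers, was at 68.7 in rpFSH pig 1, 66.4 in rpFSH pig 2 and 66.1 in control pig 4. It was at 1.34 in control pig 2 and 19.3 in rpFSH pig 4. Each other granulosa gene was highest in control pig 1, control pig 4 or rpFSH pig 2. Theca markers (2 of 2 matched, INSL3 most abundant) had a summed FPKM of 5.81 in control pig 2, 24.6 in rpFSH pig 1 and 44.5 in rpFSH pig 4, beside 3.47 to 222 in the other pigs.

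**Figure D3:**
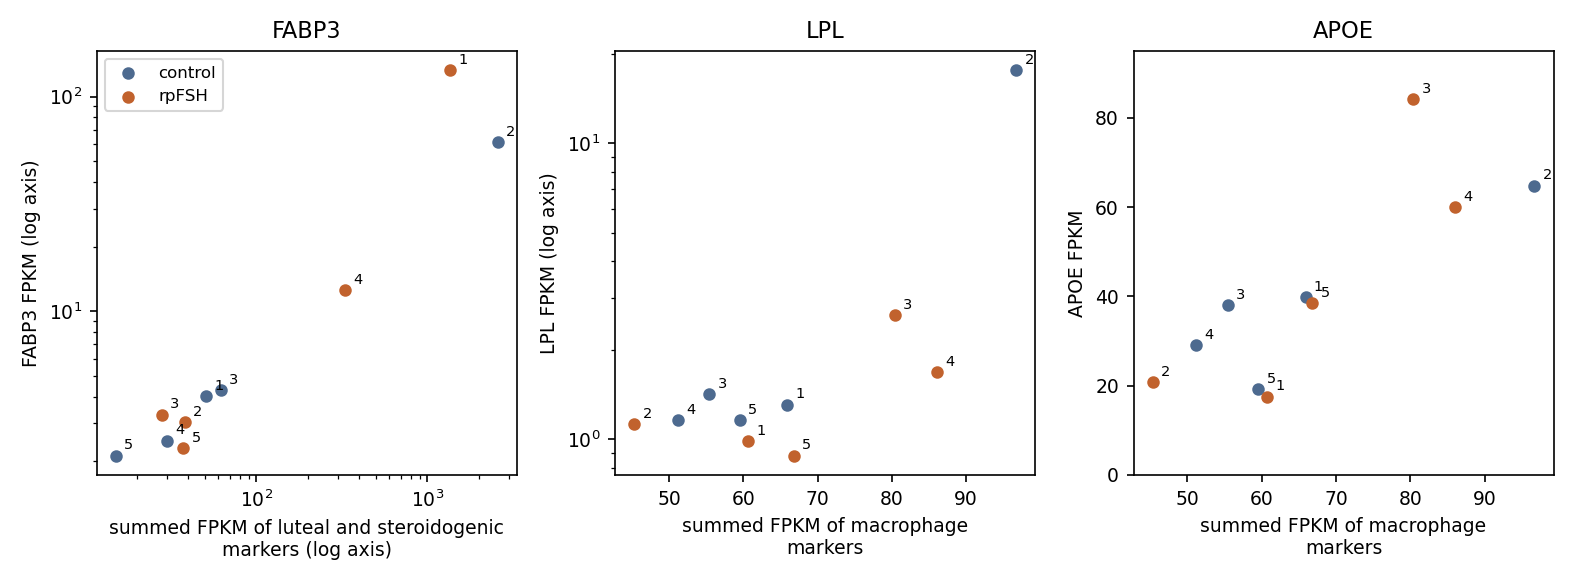
FPKM of FABP3, LPL and APOE (y axes) against the summed FPKM of luteal and steroidogenic markers or of macrophage markers (x axes) in 5 control and 5 rpFSH pigs, numbered. FABP3 exceeded 10 FPKM only in the 3 pigs with the highest sums of luteal markers, and APOE exceeded 50 FPKM only in the 3 pigs with the highest sums of macrophage markers.

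FABP4 (chromosome 4, 55096228 to 55101209, plus strand) is found in fat cells, the endothelium of capillaries and macrophages. FABP4 had FPKM of 0.397, 0.150, 0.416, 0.149 and 2.90 in control pigs 1 to 5, and of 0.397, 4.19, 0.466 and 0.747 in rpFSH pigs 2 to 5. In rpFSH pig 1 it had 0 counts, which allows an FPKM of up to 0.0328. Control pig 5 and rpFSH pig 3 were high, and the groups overlapped. For FABP4 edgeR gave a log2 change of 0.52 ± 1.24 (SE, n = 5 each; adjusted p = 0.999; exact permutation test, p = 0.635), and it was -0.97 without rpFSH pig 3 and 2.03 without control pig 5. Endothelial markers (10 of 11 matched, VWF most abundant) had a summed FPKM of 94.2 in control pig 5 and 99.98 in rpFSH pig 3, within the range of 47.1 to 122 over all pigs.

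FABP5 (chromosome 4, 55276621 to 55282908, minus strand), a carrier of epidermis and many other tissues, is on the same chromosome as FABP4. FPKM of this gene was 4.41, 4.35, 1.95, 1.32 and 8.73 in control pigs 1 to 5 and 3.07, 3.58, 6.05, 8.42 and 2.62 in rpFSH pigs 1 to 5. Control pig 5 and rpFSH pig 4 were high, control pigs 3 and 4 were low, and the rpFSH pigs lay within the range of the controls. A log2 change of 0.20 ± 0.51 was obtained by edgeR (SE, n = 5 each; adjusted p = 0.999; exact permutation test, p = 0.587). The value was -0.03 without control pig 4, -0.10 without rpFSH pig 4 and 0.66 without control pig 5.

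Within the summed FPKM of the 3 FABP genes, FABP3 held 56.3% ± 28.5 in control pigs and 52.9% ± 27.9 in rpFSH pigs, FABP5 36.5% ± 21.6 and 36.7% ± 19.7, and FABP4 7.17% ± 8.10 and 10.4% ± 12.5 (SD, n = 5 each). The differences of -3.40, 0.182 and 3.21 percentage points gave p = 0.841, 0.984 and 0.651 by two-sided exact permutation tests. FABP3 held over 50% in 5 of 10 pigs, up to 97.7% in rpFSH pig 1, and FABP5 in 2. FABP4 reached 30.9% in rpFSH pig 3.

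**Figure D4:**
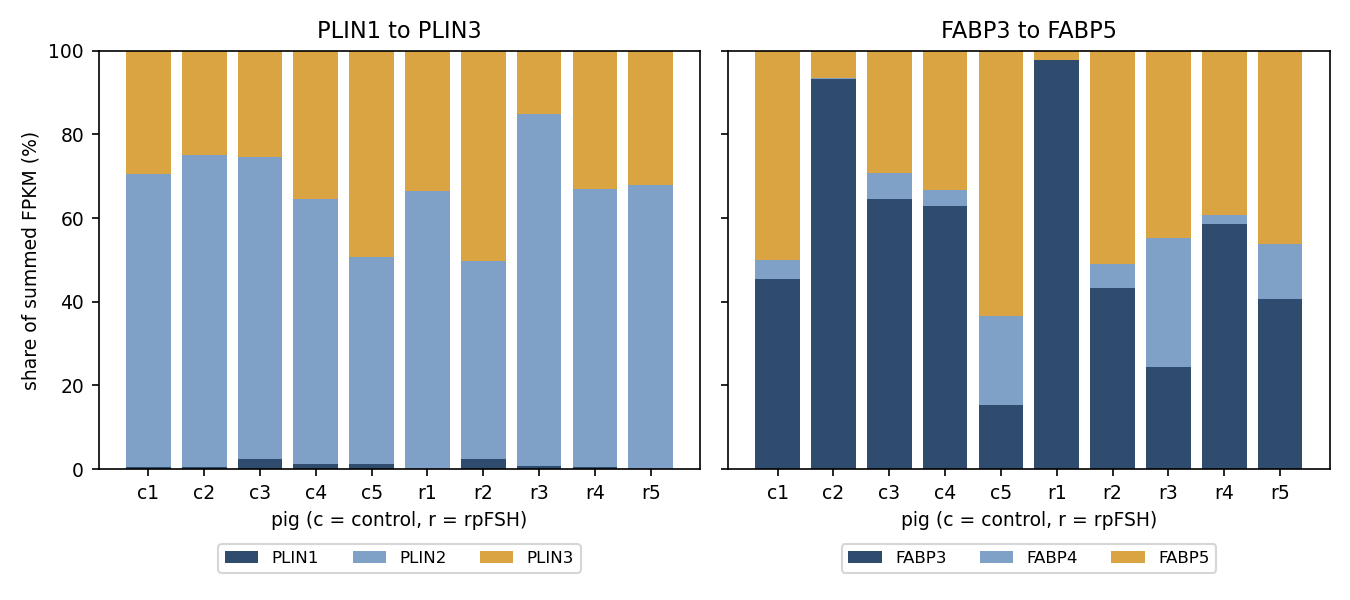
Share in percent (y axis) of each gene in the summed FPKM of PLIN1 to PLIN3 (left) and FABP3 to FABP5 (right) in each control (c) and rpFSH (r) pig, numbered. PLIN2 held over 50% in 8 of 10 pigs, whereas the share of FABP3 ran from 15.4% in control pig 5 to 97.7% in rpFSH pig 1.

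LPL (chromosome 14, 4104769 to 4136593, plus strand) works at the wall of capillaries. Its FPKM was 1.31, 17.7, 1.43, 1.16 and 1.16 in control pigs 1 to 5 and 0.988, 1.13, 2.64, 1.69 and 0.882 in rpFSH pigs 1 to 5. Control pig 2 stood alone, rpFSH pig 3 came next, and the groups overlapped. The edgeR log2 change was -1.68 ± 0.87 (SE, n = 5 each; adjusted p = 0.878), and the exact permutation test gave p = 0.611. Without control pig 2 the log2 change was 0.25, so its sign rested on this pig. Macrophage markers (11 of 11 matched, none at 0 counts) had their highest sum, 96.7, in control pig 2. That pig also had the highest sums of endothelial (122) and luteal markers (2580) and the lowest of stromal markers (195). Without that pig, LPL and the mean log2 (FPKM + 1) of these markers had r = 0.752 (exact permutation p = 0.0167) and rho = 0.567 (exact permutation p = 0.121) over 9 pigs, with adjusted p of 0.134 and 0.322 over the 8 relations. The part of macrophages in the level of LPL was not tested.

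The locus described as CD36 molecule had FPKM of 1.51, 1.46, 1.05, 0.776 and 3.55 in control pigs 1 to 5 and 0.372, 0.418, 3.59, 1.35 and 0.548 in rpFSH pigs 1 to 5. Control pig 5 and rpFSH pig 3 were high, as for FABP4, and rpFSH pigs 1, 2 and 5 lay below all controls. Its log2 change by edgeR was -0.41 ± 0.66 (SE, n = 5 each; adjusted p = 0.999; exact permutation test, p = 0.429), and it was 0.06 without control pig 5 and -1.29 without rpFSH pig 3. Over the 10 pigs it had r = 0.836 with FABP4 (permutation p = 0.00873, adjusted p = 0.120 over 36 pairs) and rho = 0.636 (permutation p = 0.0549, adjusted p = 0.295), and with deviations from the group mean r was 0.911. Over the 8 pigs other than control pig 5 and rpFSH pig 3, its r with FABP4 was 0.110 (exact permutation p = 0.790) and rho 0.286 (exact permutation p = 0.501), so that the likeness of these loci rested on those pigs. The adjusted p values over the 8 relations were 0.790 and 0.572.

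APOE (chromosome 6, 51372241 to 51375617, plus strand) is made by macrophages and by cells that make steroids, among others. FPKM of APOE was 39.9, 64.8, 38.0, 29.0 and 19.1 in control pigs 1 to 5 and 17.5, 20.8, 84.2, 60.0 and 38.4 in rpFSH pigs 1 to 5. The high pigs were rpFSH pig 3, control pig 2 and rpFSH pig 4, the low ones rpFSH pigs 1 and 2 and control pig 5, and the groups overlapped. The means were 38.1 ± 17.0 and 44.2 ± 28.0 (SD, n = 5 each). The edgeR log2 change was 0.21 ± 0.46 (SE; adjusted p = 0.999; exact permutation test, p = 0.881), and it was -0.15 without rpFSH pig 3. ENSSSCG00000035292 overlaps the locus on the other strand.

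High APOE went with high macrophage markers. Their summed FPKM was 65.9, 96.7, 55.4, 51.2 and 59.6 in control pigs 1 to 5 and 60.7, 45.3, 80.4, 86.1 and 66.8 in rpFSH pigs 1 to 5. The most abundant of them, a locus that joins CD68 with EIF4A1, ran otherwise than APOE. It was lowest in control pig 2 (22.4), at 24.8 in rpFSH pig 3 and highest in rpFSH pig 1 (44.4), where APOE was lowest. APOE and the mean log2 (FPKM + 1) of the 11 markers had r = 0.875 (permutation p = 0.00156, adjusted p = 0.0499 over 108 relations) and rho = 0.855 (permutation p = 0.00302, adjusted p = 0.163) over 10 pigs. The adjusted p of 0.0499 was set by the relation of LPL with these markers, and could pass 0.05 with another draw of permutations. Without the 2 pigs farthest from the median of APOE r was 0.838, and with each pig taken as its deviation from the group mean it was 0.877. The 3 high pigs lay apart, and over the 7 others r was 0.639 (exact permutation p = 0.122, adjusted p = 0.244 over the 8 relations) and rho 0.679 (exact permutation p = 0.110, adjusted p = 0.322). The part of macrophages in the level of APOE was not tested.

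ABCA1 (chromosome 1, 246092206 to 246278526, minus strand) had FPKM of 9.68, 6.49, 11.8, 5.76 and 5.68 in control pigs 1 to 5 and 4.91, 7.16, 17.8, 9.50 and 7.62 in rpFSH pigs 1 to 5. As for APOE, rpFSH pig 3 was highest and rpFSH pig 1 lowest, and the groups overlapped. The rpFSH pigs exceeded the control median in 4 of 5 cases. The edgeR log2 change was 0.28 ± 0.34 (SE, n = 5 each; adjusted p = 0.999; exact permutation test, p = 0.659), and it was -0.08 without rpFSH pig 3. ENSSSCG00000005424 overlaps the locus on the other strand, and 2 loci of another type with the name ABCA1 lie inside it.

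Pearson and Spearman correlations of log2 (FPKM + 1) were computed for the 36 pairs of the 8 tested genes and the locus described as CD36 molecule. Of these pairs 0 had an adjusted p under 0.05 by both measures (permutation tests over 10 pigs), and 27 had a positive r. APOE and ABCA1, the sterol carriers, had r = 0.727 (permutation p = 0.0167, adjusted p = 0.120) and rho = 0.709 (permutation p = 0.0272, adjusted p = 0.245), and r was 0.419 without the 2 pigs farthest from the median of APOE, so the relation rested partly on them. PLIN2 and APOE had r = 0.745 (permutation p = 0.0144, adjusted p = 0.120) and rho = 0.624 (permutation p = 0.0615, adjusted p = 0.295), with r = 0.648 without the pair of pigs farthest from the median of PLIN2. PLIN3 and ABCA1 had the lowest r, -0.650 (permutation p = 0.0407, adjusted p = 0.210), with rho = -0.600 (permutation p = 0.0743, adjusted p = 0.295) and r = -0.442 without the pair of pigs farthest from the median of PLIN3. PLIN2 and LPL had the smallest permutation p of the 36 pairs by Pearson's r (0.00395, adjusted p = 0.120, r = 0.688), with rho = 0.612 (permutation p = 0.0669, adjusted p = 0.295), and over the 9 pigs without control pig 2 r was 0.647 (exact permutation p = 0.0568) and rho 0.467 (exact permutation p = 0.213). The r of PLIN3 and FABP3 was 0.740 over 10 pigs (permutation p = 0.0103, adjusted p = 0.120) but -0.354 over the 7 pigs with low FABP3 (exact permutation p = 0.425), with rho = 0.491 (permutation p = 0.154) and -0.464 (exact permutation p = 0.302). Over the same 7 pigs PLIN2 and FABP3 had r = 0.525 (exact permutation p = 0.228) and rho = 0.607 (exact permutation p = 0.167). The pair with the highest r, FABP4 and the locus described as CD36 molecule, is treated above.

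**Figure D5:**
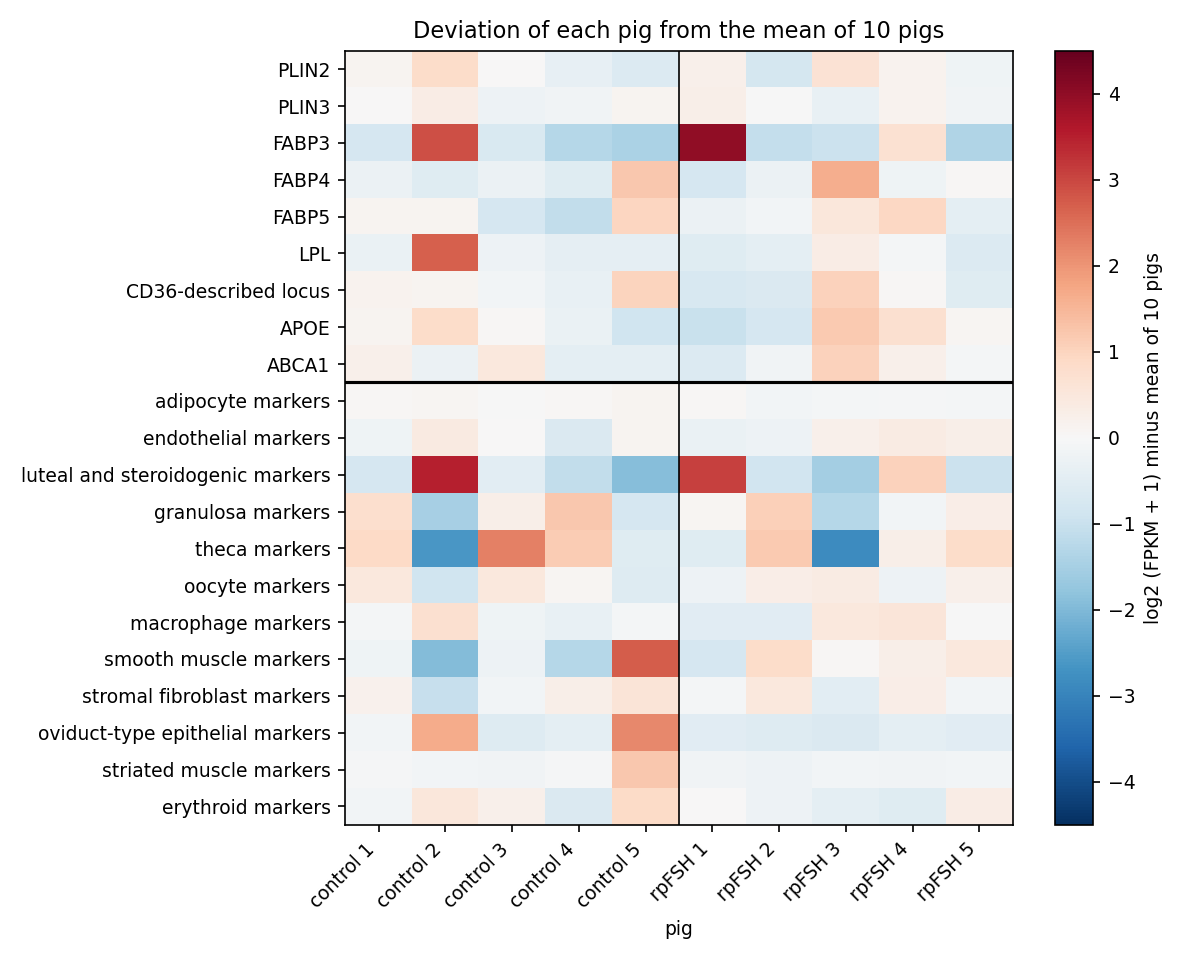
Deviation of each pig (x axis) from the mean of 10 pigs in log2 (FPKM + 1), as colour, for the 8 tested genes and the locus described as CD36 molecule (above the line) and for the mean of each of 12 marker lists (below it). FABP3 followed the luteal and steroidogenic markers in control pig 2 and rpFSH pigs 1 and 4, and APOE and the macrophage markers were high in control pig 2 and rpFSH pigs 3 and 4.

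Among the 108 relations of a locus with a marker list, 0 had an adjusted p under 0.05 by both measures. By Pearson's r alone 4 did, those of FABP3 with luteal, of APOE and LPL with macrophage, and of PLIN2 with stromal markers, and by Spearman's rho 0 did. All 4 shared an adjusted p of 0.0499, which was set by LPL with macrophage markers (permutation p = 0.00185). That p came from 100000 random permutations, and another draw could move all 4 past 0.05. PLIN2 and the stromal fibroblast markers (6 of 6 matched, COL1A1 most abundant) had r = -0.856 (permutation p = 0.00112, adjusted p = 0.0499) and rho = -0.733 (permutation p = 0.0200, adjusted p = 0.367) over 10 pigs. Without the 2 pigs farthest from the median of PLIN2 r was -0.761, and with deviations from the group mean it was -0.857. The summed FPKM of stromal markers was 707, 195, 530.5, 690.1 and 1031 in control pigs 1 to 5 and 679, 1320, 346, 908 and 665 in rpFSH pigs 1 to 5, lowest in the pigs with the most PLIN2 and highest in the pig with the least. The single genes, looked at after their values were seen, did not all run so. In rpFSH pig 3 COL1A1 (89.0) and COL1A2 (87.3) were low. DCN (137.8, range 46.8 to 229) and PDGFRA (26.9, range 9.23 to 31.6) were not. In control pig 2 LUM was at 7.68 (range 2.07 to 29.0), whereas COL1A1, COL1A2, DCN, PDGFRA and TCF21 were lowest there. The part of stromal cells in the level of PLIN2 was not tested. LPL and the stromal markers had r = -0.461 (exact permutation p = 0.217) and rho = -0.100 (exact permutation p = 0.810) over the 9 pigs without control pig 2.

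The loci most like each gene over the 10 pigs were sought by Pearson's r among 9737 protein-coding loci that had a symbol and averaged 1 FPKM or more, and as the highest of so many they carry no p. For PLIN2 these were FTL (0.925) and RAPGEF1 (0.902), for PLIN3 MTFR1L (0.933) and GATD1 (0.931), and for FABP5 TGFB2 (0.944) and GMPR (0.935). FTL, the light chain of ferritin, had FPKM of 568 in control pig 2, 547 in rpFSH pig 3 and 187 in rpFSH pig 2. APOE was most like BACH1 (0.940) and PRKD3 (0.932), and ABCA1 most like NT5C2 (0.920) and KDM7A (0.902). FABP3 was most like PIM2 (0.992) and SCAMP5 (0.989), and LPL most like CREBL2 (0.978) and DNAJC6 (0.969). These values rest on the pigs that stood apart, since PIM2 had FPKM of 26.0 in control pig 2, 44.3 in rpFSH pig 1 and 7.07 in rpFSH pig 4 but at most 2.39 in the other pigs, and CREBL2 had 29.7 in control pig 2 and at most 7.57 in the others. For FABP4 the likest were TRPS1 (0.965) and HOXA5 (0.944), the latter at 3.33 in control pig 5 and 5.38 in rpFSH pig 3, and for the locus described as CD36 molecule SMAD7 (0.937) and GPR171 (0.928).

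Other genes of lipid handling were counted from 6 lists. Of 103 listed genes 95 were matched and 86 tested, 2 with an unadjusted edgeR P under 0.05 and higher levels in rpFSH pigs and 1 with lower levels, or 3.49% beside 4.86% of the protein-coding loci tested. None of these lists held a gene with an adjusted p under 0.05 by edgeR. The median log2 change was -0.10 over the 86 genes and -0.05 over the protein-coding loci. With 1 pig left out, the list medians ran from -0.17 to 0.01 for droplet relatives, -0.27 to 0.21 for triglyceride, -0.36 to 0.13 for uptake, -0.29 to 0.16 for sterol, -0.18 to 0.06 for regulator and -0.29 to 0.05 for KEGG PPAR genes, so that the sign of each turned. Without control pig 2 those of the triglyceride, uptake, sterol and KEGG PPAR lists were at the upper end.

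Among relatives of the perilipins and FABPs and other lipid droplet proteins, 12 of 14 genes were tested, 0 had an unadjusted P under 0.05 by edgeR, DESeq2 or limma, and the median log2 change was -0.05. In this and the following lists any gene to which DESeq2 gave no P was left out of its count. HILPDA, which holds back the main triglyceride lipase, had a log2 change of -0.00 ± 0.15 (SE, n = 5 each), and BSCL2, needed to form droplets and here joined with LRRN4CL in a locus, 0.01 ± 0.30. For triglyceride synthesis and lipolysis 13 of 14 genes were tested, 0 with such a P by the 3 tools, with a median of -0.12. MGLL, which splits monoglycerides, was at -0.46 ± 0.47 and AGPAT1, an acyltransferase, at 0.01 ± 0.26. Of fatty acid uptake, activation and oxidation 19 of 21 genes were tested, 0 with such a P by the 3 tools, with a median of -0.17. The subunits of the mitochondrial trifunctional protein, HADHB and HADHA, had log2 changes of -0.72 ± 0.65 and -0.59 ± 0.48, with FPKM of 82.3 and 48.5 in control pig 2.

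Of the LPL partners and lipoprotein receptors 14 of 16 were tested, and LRP1, an endocytic receptor that binds APOE, had an unadjusted P under 0.05. FPKM of LRP1 was 68.1, 78.5, 66.2, 101 and 84.7 in control pigs 1 to 5 and 111, 95.2, 105, 100.4 and 101 in rpFSH pigs 1 to 5. Control pig 4 lay among the rpFSH pigs, and the log2 change was 0.39 ± 0.16 (edgeR, SE, n = 5 each; adjusted p = 0.848). The median of this list was 0.08, and with 1 pig left out it ran from -0.14 without rpFSH pig 1 to 0.34 without control pig 2, with -0.01 without control pig 5. LRP1 lost this P without control pig 1, without control pig 3, without rpFSH pig 1, without control pig 2 and rpFSH pigs 1 and 4 together, and with a replicate block. SCARB1, the receptor that takes cholesteryl esters from high-density lipoprotein and chosen after its values were seen, had FPKM of 183 in control pig 2, 123 in rpFSH pig 1 and 28.8 in rpFSH pig 4 and at most 7.73 in the others, the pigs in which FABP3 was high.

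For sterol efflux and intracellular sterol handling 17 of 25 genes were tested, with a median of -0.13. SCP2, a sterol carrier of peroxisomes, had an unadjusted P under 0.05 and a log2 change of -2.17 ± 0.94 (edgeR, SE, n = 5 each; adjusted p = 0.850). Its FPKM was 51.5 in control pig 2 and between 1.89 and 4.08 in the other pigs, and without that pig the list held 0 such genes by edgeR. SCP2 also lost this P without any 1 of the 5 rpFSH pigs, by limma and with a replicate block. It was not among the genes with such a P by DESeq2 either. Whether DESeq2 gave SCP2 any P, which it did not for FABP3 and LPL, was not recorded. Of nuclear receptors and other regulators 11 of 13 were tested, with a median of -0.08, and PPARA, a receptor for fatty acids, had an unadjusted P under 0.05. FPKM of PPARA was 2.19, 3.00, 2.78, 3.55 and 2.85 in control pigs 1 to 5 and 3.75, 3.79, 3.93, 3.82 and 3.36 in rpFSH pigs 1 to 5. Control pig 4 overlapped the rpFSH pigs, and the log2 change was 0.40 ± 0.14 (edgeR, SE, n = 5 each; adjusted p = 0.848). PPARA kept this P with each pig left out in turn. The PPAR signaling pathway of the table's KEGG column held 64 other loci, 51 of them tested, with a median of -0.11 and 3 such genes, PPARA and SCP2 again and CYP7A1, at a mean FPKM of 0.108. CYP7A1 had a log2 change of 2.76 and FPKM of 0.647 in rpFSH pig 3 and at most 0.219 elsewhere. It met the filter of 0.1 FPKM only through rpFSH pigs 3 (0.647) and 4 (0.219), and was at most 0.0632 in control pigs. CYP7A1 lost its P without control pig 2, 3, 4 or 5, without rpFSH pig 3 or 4, with a replicate block and by limma. At a mean FPKM of at least 1 it was not tested.

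The remaining marker lists are given by the range of their summed FPKM over pigs. Granulosa markers (7 of 9 matched, INHA most abundant) lay between 17.2 in rpFSH pig 3 and 229.9 in control pig 4. Oocyte markers (6 of 6, GDF9 most abundant) lay between 4.26 in control pig 2 and 21.6 in control pig 1. The most abundant oviduct-type gene was OVGP1, in a locus joined with WDR77. Erythroid markers (5 of 6, HBB most abundant) lay between 11.0 in control pig 4 and 117 in control pig 5. Striated muscle markers (5 of 6, ACTA1 most abundant) were at 35.8 in control pig 5 and at most 1.07 in the other pigs, and FABP3 was lowest, at 2.12, in that pig. Unadjusted P under 0.05 with lower levels in rpFSH pigs was found for 7 of 7 tested oviduct-type, 2 of 4 striated muscle and 1 of 6 stromal genes, and for 0 genes of the other 9 lists by edgeR, beside 3.74% of the protein-coding loci tested. Each of these 10 genes had an adjusted p of 0.848. ACTA1 was at 34.9 in control pig 5 and at most 0.0236 elsewhere, and the locus of OVGP1 was at 20.6 in control pig 2, 63.6 in control pig 5 and at most 3.12 elsewhere. For MAL2 and MYH7, chosen after their values were seen, each control pig lay above all rpFSH pigs, as in 0.547% of the protein-coding loci tested. MAL2 was between 3.93 and 14.0 in control pigs and at most 3.24 in rpFSH pigs. MYH7 was between 0.106 and 0.456 in control pigs and at most 0.105 in rpFSH pigs.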

How the data were processed

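Whole-ovary RNA of 5 control and 5 rpFSH gilts, 1 library each, was taken as grouped by the sample labels. FPKM was estimated by the authors with Ballgown on StringTie assemblies of reads that Cutadapt had trimmed and Hisat2 and Bowtie2 had placed on the Sscrofa11.1 genome (versions in the submitters' notes: Bowtie 0.12.2, HISAT2 2.0, StringTie 1.3.0). The deposited table holds FPKM and whole-number counts per gene locus, and how the authors made the counts is not stated. Counts per pig were between 64873797 and 75114003, so that 3 counts correspond to about 0.0328 FPKM for FABP4.

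Differences were tested with edgeR 4.0.16 (quasi-likelihood, TMM, loci with mean FPKM of at least 0.1, Benjamini-Hochberg over all loci) in R 4.3.3. Two-sided exact permutation tests used the 252 assignments of 5 against 5 pigs (smallest possible p 0.00794) on log2 (FPKM + 1). Correlations used 100000 permutations, or all pairings for up to 9 pigs. They covered the tested genes and the locus described as CD36 molecule. Python 3.11.15 with numpy 2.4.6, pandas 2.3.3, scipy 1.17.1 and matplotlib 3.10.9 did the rest. The tests were tested on simulated data.

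Alternatives were DESeq2 1.42.0, limma 3.58.1 on log2 FPKM with a pseudocount of 1 or 0.1, RLE and upper-quartile size factors, no filter, a mean FPKM of at least 1, protein-coding loci only, a replicate block, each pig left out, and control pigs 2 and 5 left out. Leaving out control pig 2 and rpFSH pigs 1 and 4, relations without pigs that lay apart, and leaving out each pig for the pathway lists were chosen after seeing the data. The genes and lists were chosen with earlier results of these data known. Named beside the genes were, per pathway list, those with an unadjusted edgeR P under 0.05 (at most 4) or else the 2 with the highest mean FPKM. For each marker list the most abundant gene was named, with any gene at 0 counts, and for each gene the 2 loci most like it. Genes named beyond this rule are said to be chosen after their values were seen.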

Additional observations from a re-analysis of the deposited data

Results flagged for a closer look

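In 6 of 20 groups of 5 pigs, 1 pig lay far from the other 4, with a gap above 0.71 of the group's range, which chance gives in about 1 in 20 groups if values are independent and normally distributed. That was not checked for these skewed FPKM of the same 10 pigs. For FABP3 these were control pig 2 at 61.4 FPKM and rpFSH pig 1 at 133. For FABP4 they were control pig 5 at 2.90 and rpFSH pig 3 at 4.19. LPL was at 17.7 in control pig 2. The locus described as CD36 molecule was at 3.55 in control pig 5. The causes were not tested.

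With 5 pigs a group and 1 library per pig, pig and library cannot be told apart. Surface follicles had been removed, so the values describe the rest of the ovary, and levels of RNA say nothing of protein or of stored lipid. Whether counts of overlapping loci share reads is not known, as the use of strand in counting is not stated. PLIN1 lay below the filter of the edgeR test, and CD36 was present only by its description.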

How the results depend on the processing

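Over 21 alternatives the log2 changes of the 8 tested genes gave 167 values, as FABP4 has no value at a mean FPKM of at least 1. Of these, 139 kept their direction and 28 had the other sign, 21 of them with pigs left out and 7 under other settings. An adjusted p under 0.05 was reached by 0 of them by edgeR, DESeq2 or limma (smallest 0.764), and 1 gene, FABP3, had an unadjusted P under 0.05 without control pig 2. No scaling moved the median of the protein-coding loci by 0.1.

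With 1 pig left out, the number of the 8 genes with an unadjusted P under 0.05 was 0 to 1. The numbers of such genes were 0 to 1 for droplet relatives, 0 to 1 for triglyceride, 0 to 1 for fatty acid uptake, 0 to 4 for lipoprotein, 0 to 2 for sterol, 1 to 2 for regulator and 1 to 4 for KEGG PPAR genes. Correlated pairs of loci, and of a locus with a marker list, numbered 0 to 1 each. Differences in share ran from -3.85 to 5.34 percentage points for PLIN2, from -4.43 to 4.35 for PLIN3, from -14.6 to 5.82 for FABP3, from -1.93 to 6.70 for FABP4 and from -7.30 to 8.79 for FABP5.

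By DESeq2 the lipoprotein list held 2 genes with an unadjusted P under 0.05 and the sterol list 0, with any gene that DESeq2 gave no P left out. By limma the sterol list held 0 and the KEGG PPAR list 1. Without control pig 2 and rpFSH pigs 1 and 4, chosen after seeing the data, the triglyceride list held 1, the lipoprotein list 0 and the sterol list 0. The causes were not tested.

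With a replicate block the log2 change was 0.65 for FABP3, -0.45 for LPL, 0.24 for FABP4, 0.34 for FABP5, 0.14 for APOE, 0.22 for ABCA1, -0.02 for PLIN3, 0.11 for PLIN2 and -0.84 for the locus described as CD36 molecule. Pigs of equal number were not paired, with correlations between -0.41 and 0.11.

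At this depth, values of PLIN1 rest on 0 to 16 counts and those of FABP4 on 0 to 335.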
